A study of Mus musculus with 9 samples.

Results

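Among 69547 long noncoding transcripts counted in mouse spinal cord, 27 stood apart in the 3 libraries given hyperbaric oxygen from all 6 libraries of the other groups. They were chosen from the measured values themselves, so their distance between hyperbaric oxygen and the other groups is a description and was not tested. Values are CPM, the share of a transcript in the summed count of all listed transcripts of its library, scaled to 1e6. A transcript was taken as raised when its lowest CPM in the hyperbaric oxygen libraries was at least 1.5 times the highest of the other 6, with at least 10 counts in each hyperbaric oxygen library. It was taken as lowered when the lowest CPM of the other 6 was at least 1.5 times the highest in hyperbaric oxygen, with at least 10 counts in each of those 6. The rule found 14 raised and 13 lowered transcripts, which is 0.0388% of those listed.

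The animals were wild type C57BL/6 mice aged 7 to 9 weeks, and total RNA of the spinal cord was sequenced on day 7. Control libraries are labelled as uninjured, although the series design calls that group sham. Injury libraries are labelled as injured cord, and HBO libraries as hyperbaric oxygen treatment, which the series design places among groups taken after spinal cord injury. Each group held 3 libraries. No label ties a library to its own animal, so any p-value here rests on differences among libraries that may be technical ones. The pressure, length and number of oxygen sessions and the level of the lesion are not stated in the labels.

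Long noncoding RNAs are transcripts with no long open reading frame. Some act on the gene they overlap or neighbour, some bind proteins or microRNAs, and for most no role is known. Hyperbaric oxygen is oxygen breathed above atmospheric pressure, which raises the amount dissolved in plasma and is studied as a treatment of oxygen-starved injured tissue. Injured spinal cord at this stage is known for loss of neurons, infiltrating macrophages, reactive glia and a scar that holds fibroblasts. In bulk cord RNA, fewer cells of a type and less RNA per cell cannot be told apart.

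The listed transcripts carried 2295433 to 3148744 counts per library, 17.1% to 19.5% of the totals by which the FPKM values had been scaled. HBO replicate 3 stood apart from HBO replicates 1 and 2 (chi-square per degree of freedom 16.8 and 17.7, against 6.54 to 10.1 for the other replicate pairs). Counts of the members were low. The raised members had 11 to 169 counts in an HBO library, and 1 count was worth 0.318 to 0.436 CPM. Cell type markers could be read only through the listed noncoding transcripts over each marker gene. The sums over neuron markers were 1013 to 1145 CPM in control, 350.0 to 569 CPM after injury and 431 to 592 CPM in HBO, and those over oligodendrocyte markers were 719.7 to 1288 CPM in all 9 libraries. No member overlapped a marker gene.

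Of the 27 members, 24 carry NONCODE identifiers whose sequences were not used here, and 3 are annotated transcripts of the genes Gm4419, Gm26690 and Gm9917. Sequences are shown for the places where the annotation lets a reader tell a member from its surroundings, in the GRCm38 build. The first pair shows the splice junction by which the lowered transcript Gm9917-201 differs from Gm9917-202, a listed transcript of the same gene, with the end of the shared exon 1 in capitals and the start of exon 2 in lower case, read from GENCODE M21 on the minus strand.
Gm9917-201: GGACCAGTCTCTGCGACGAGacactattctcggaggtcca
Gm9917-202: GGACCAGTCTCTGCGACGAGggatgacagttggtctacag
The exon 1 side is the same in both, and the exon 2 side begins at chromosome 9 position 107563913 in Gm9917-201 and at 107566868 in Gm9917-202.

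The next pair shows the last 50 bases of Gm4419-201 (chr12:21419754-21419803, plus strand) and of Gm9917-201 (chr9:107558809-107558858, minus strand), which were searched for the polyadenylation motif AATAAA on the transcript's own strand.
Gm4419-201: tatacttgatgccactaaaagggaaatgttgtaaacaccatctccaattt
Gm9917-201: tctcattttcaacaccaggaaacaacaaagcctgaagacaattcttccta
Neither stretch held these letters, so no capitals are set. Among 6656 listed Ensembl transcripts, 31.0% held them in their last 50 bases.

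Around the start of Gm4419, the raised member outside coding genes that lies nearest to one, is the stretch below (chr12:21417638-21417931, plus strand, 294 bases, RefSeq on GRCm38). Its last 21 bases lie inside the listed transcript.
Gm4419 promoter: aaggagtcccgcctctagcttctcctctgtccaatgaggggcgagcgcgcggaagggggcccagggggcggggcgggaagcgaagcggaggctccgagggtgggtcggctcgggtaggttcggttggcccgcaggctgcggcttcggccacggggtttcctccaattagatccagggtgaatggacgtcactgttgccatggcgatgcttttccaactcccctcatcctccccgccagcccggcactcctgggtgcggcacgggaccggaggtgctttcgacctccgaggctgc
It was searched on both strands for ACGTG, the core of the element bound by hypoxia-inducible factors, and for TGACNNNGC, the core of the antioxidant response element. Neither was found in this window, while 19.6% and 12.4% of 32851 RefSeq promoter windows hold them. A single stretch can match both motifs, and a missing match says only that these letters are not in this window.

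The lowered member with the highest level per length, NONMMUT006436.2, spans the microRNA gene Mir1982. Its mature sequences (RefSeq, GRCm38, plus strand, chr10:80828808-80828827 and chr10:80828848-80828870) are shown with their seed, bases 2 to 8, in capitals.
mmu-miR-1982-5p: uUGGGAGGguccuggggagg
mmu-miR-1982-3p: uCUCACCCuauguucucccacag
The seeds differ, and mature microRNAs were not measured in these libraries.

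**Figure D1:**
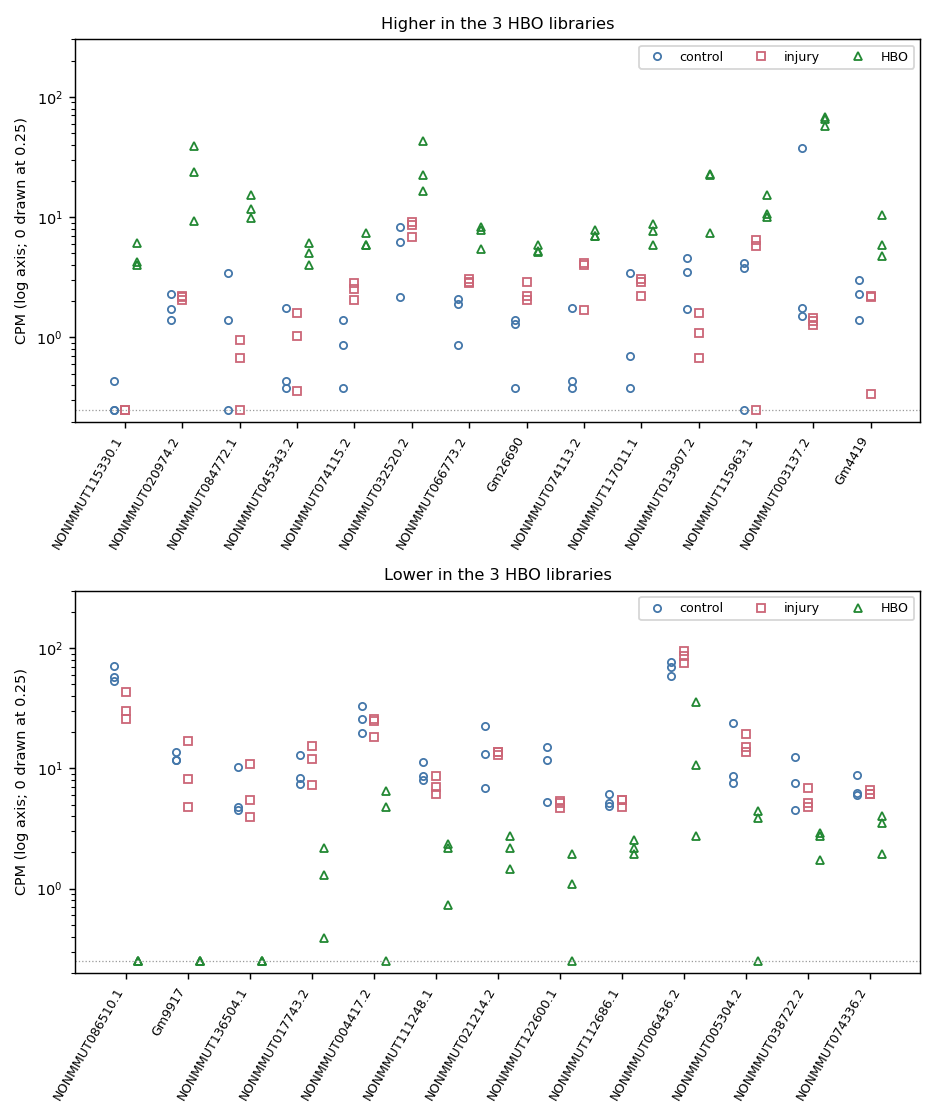
CPM of each member in the 9 libraries on a log axis, with control as circles, injury as squares and HBO as triangles, and values of 0 drawn at 0.25. In the upper panel, 14 members have all HBO triangles above the other symbols, and in the lower panel 13 members have them below. NONMMUT086510.1, Gm9917 (transcript 201) and NONMMUT136504.1 are at 0 in all 3 HBO libraries.

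Of the raised members, 5 touched a coding exon. NONMMUT003137.2 (chromosome 1, 151719001 to 151720819) lies on the 3′ UTR of Fam129a, a gene known for its induction under cellular stress. It had 1.52, 37.6 and 1.74 CPM in control replicates 1, 2 and 3, 1.27, 1.36 and 1.45 CPM after injury, and 56.7, 65.7 and 68.4 CPM in HBO. Control replicate 2 sat far above the other control and injury libraries and alone brought this member close to the threshold.

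NONMMUT032520.2 (chromosome 18, 60212077 to 60215301) lies on the 5′ UTR of Gm4951, which belongs to the interferon-inducible GTPases. Its CPM were 8.35, 2.16 and 6.27 in control, 8.57, 6.81 and 9.04 in injury and 16.5, 22.5 and 42.7 in HBO. Within HBO, replicate 3 was the highest, and control and injury overlapped.

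NONMMUT066773.2 (chromosome 8, 94490151 to 94491299) touches coding sequence and the 3′ UTR of Nlrc5, a transactivator of MHC class I genes. It measured 1.90, 0.865 and 2.09 CPM in control, 2.86, 3.07 and 2.89 CPM after injury and 5.49, 7.77 and 8.28 CPM in HBO, so that the 3 groups formed 3 separate ranges. The other 18 listed transcripts over Nlrc5, summed, ranged from 25.4 to 32.0 CPM in control, from 20.6 to 34.8 CPM after injury and from 33.7 to 78.9 CPM in HBO, where the lowest HBO value lay below the highest injury value.

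NONMMUT045343.2 (chromosome 3, 133099400 to 133102094) lies on coding sequence of Ints12, a subunit of the Integrator complex, which cleaves nascent RNAs and ends their transcription. Its values were 0.380, 0.432 and 1.74 CPM in control, 1.59, 1.02 and 0.362 CPM after injury and 4.02, 5.05 and 6.10 CPM in HBO. The fifth was Gm26690. It had 0.380, 1.30 and 1.39 CPM in control, 2.22, 2.04 and 2.89 CPM after injury and 5.12, 5.83 and 5.23 CPM in HBO, again 3 separate ranges. The files give no strand, so reads of a member over coding exons and of the mRNA it touches cannot be told apart here.

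Another 3 raised members lay inside introns of coding genes, and 2 of these shared a gene. NONMMUT074115.2 (chromosome X, 141449116 to 141451562) and NONMMUT074113.2 (chromosome X, 141400548 to 141404303) lie 44813 bases apart in Col4a6, which encodes a chain of basement membrane collagen IV. NONMMUT074115.2 had 0.380, 0.865 and 1.39 CPM in control, 2.86, 2.04 and 2.53 CPM after injury and 5.85, 5.83 and 7.41 CPM in HBO. NONMMUT074113.2 had 0.380, 0.432 and 1.74 CPM in control, 4.13, 1.70 and 3.98 CPM after injury and 6.95, 7.77 and 6.97 CPM in HBO. Both were lowest in control and highest in HBO by group mean, and as transcripts of 1 gene they may share a source and are not independent.

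The other 5 listed transcripts over Col4a6 followed the same order of group ranges for control, at 1.30 to 1.74 CPM, but overlapped between injury, at 7.23 to 11.8 CPM, and HBO, at 9.88 to 16.1 CPM. Beside these, noncoding transcripts over fibroblast markers were the 1 marker list of 11 with listed transcripts whose sum set HBO apart from all other libraries. That sum was 9.51 to 79.1 CPM in control, 198 to 672 CPM after injury and 965 to 1937 CPM in HBO. Of its 6 genes, 4 had listed transcripts, and Col3a1 and Lum had none. Most of the sum came from the gene of the collagen I alpha 1 chain, Col1a1, with 894, 1801 and 1594 CPM in HBO, while Col1a2, Postn and Dcn overlapped between injury and HBO. None of the 4 fibroblast marker transcripts tested passed in the fit of HBO minus the mean of injury and control (edgeR, adjusted p under 0.05). Over all transcripts tested, 0.0261% passed, so 0 calls among 4 say little. The median log2 change of the 4 in that fit was 2.92, beside 0.01 over all transcripts tested. Control is part of the reference in that contrast, so a rise already present after injury alone enters this median. Col1a2, for 1, had 2.28 to 4.88 CPM in control, 42.3 to 84.5 CPM after injury and 45.7 to 92.5 CPM in HBO. The part of fibroblast content in the members' values was not tested.

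The third intronic member was NONMMUT020974.2 (chromosome 14, 55082748 to 55084926), in Zfhx2, a homeobox transcription factor. Outside HBO it had 2.28, 1.73 and 1.39 CPM in control and 2.22, 2.04 and 2.17 CPM in injury. These rest on 4 to 7 counts per library, too few to judge how even it was. In HBO it had 38.8, 9.33 and 23.5 CPM, a wider spread than in the other 6 libraries, whose highest value the rule capped. Its mean was 23.9 ± 14.7 CPM in HBO (SD, n = 3) and 1.97 ± 0.345 CPM in the other 6 libraries.

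Between coding genes lay 6 raised members. The widest gap of the raised members belonged to NONMMUT115330.1 (chromosome 4, 99277582 to 99280563, 15337 bases from Gm12689). It had 1 count in control replicate 2, none in the other 5 control and injury libraries, and 4.02, 4.28 and 6.10 CPM in HBO, from 11, 11 and 14 counts. NONMMUT084772.1 (chromosome 11, 5554704 to 5555574, 12517 bases from Ccdc117) had 0, 3.46 and 1.39 CPM in control, 0.953, 0.681 and 0 CPM after injury and 9.88, 15.2 and 11.8 CPM in HBO. In both, all 3 HBO libraries were of similar level.

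NONMMUT013907.2 (chromosome 12, 33374393 to 33376397) lies in the noncoding gene Atxn7l1os2, 1208 bases from Atxn7l1. It had 4.56, 1.73 and 3.48 CPM in control, 1.59, 0.681 and 1.08 CPM after injury and 22.3, 22.9 and 7.41 CPM in HBO. Here HBO replicate 3 was the low library of its group, and every injury value lay below every control value. NONMMUT117011.1 (chromosome 4, 97545233 to 97546574, 21559 bases from E130114P18Rik) had 0.380, 3.46 and 0.697 CPM in control, 2.22, 3.07 and 2.89 CPM after injury and 7.68, 5.83 and 8.71 CPM in HBO.

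NONMMUT115963.1 (chromosome 4, 146428305 to 146429430) lies in the noncoding gene Gm26573, 19593 bases from the zinc finger gene Zfp992. It was detected unevenly, with 3.80, 0 and 4.18 CPM in control, 5.72, 6.47 and 0 CPM after injury and 10.6, 10.1 and 15.2 CPM in HBO. Gm4419 (ENSMUST00000180671, chromosome 12, 21417911 to 21419803), whose promoter window is printed above, starts 274 bases from Ywhaq, which encodes the theta form of the 14-3-3 adaptor proteins. It had 2.28, 3.03 and 1.39 CPM in control, 2.22, 0.341 and 2.17 CPM after injury and 4.76, 5.83 and 10.5 CPM in HBO.

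Among the 13 lowered members, 4 touched coding exons. NONMMUT006436.2 (chromosome 10, 80826656 to 80829284) touches coding sequence and UTRs of Oaz1, the antizyme that marks ornithine decarboxylase for degradation and so limits polyamine synthesis. It had 58.9, 77.0 and 69.3 CPM in control, 94.0, 75.6 and 86.4 CPM after injury, and 10.6, 2.72 and 35.3 CPM in HBO. HBO replicate 3 was closest to the other groups. Per length, it was the most abundant member, with a mean over the 9 libraries of 9.33 FPKM (11.5 in control, 14.0 in injury and 2.47 in HBO), and NONMMUT003137.2 came next with 2.61 FPKM.

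Gm9917-201 (ENSMUST00000180865, chromosome 9, 107558809 to 107568412, the transcript whose junction is printed above) runs opposite to Rassf1, Tusc2 and Hyal2, a cluster known as a tumour suppressor region in human lung cancer. It had 11.8, 11.7 and 13.6 CPM in control, 4.76, 8.18 and 17.0 CPM after injury and no count in the 3 HBO libraries. Set against 3 counts over the HBO group, its mean over the other 6 libraries was at least 28.3-fold higher, a bound that covers counting error only. The bound holds for this listed transcript and not for its locus, where other listed transcripts had counts in HBO. Gm9917-202, named after its values were seen, had 2.93 and 3.92 CPM in HBO replicates 1 and 3, 1.27 CPM in injury replicate 1 and 0 in the other 6 libraries.

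NONMMUT005304.2 (chromosome 10, 39621451 to 39640707) touches coding sequence and the 5′ UTR of Traf3ip2, an adaptor of interleukin-17 receptors, and overlaps E130307A14Rik. It had 7.59, 23.8 and 8.71 CPM in control, 19.4, 13.6 and 15.2 CPM after injury and 4.39, 3.89 and 0 CPM in HBO. NONMMUT017743.2 (chromosome 13, 58125880 to 58127070) lies on the 3′ UTR of Hnrnpa0, an RNA-binding protein that binds AU-rich elements of inflammatory mRNAs. Its CPM were 12.9, 7.35 and 8.36 in control, 12.1, 15.3 and 7.23 in injury and 2.20, 0.389 and 1.31 in HBO. In both, control and injury overlapped.

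Introns held 2 lowered members. NONMMUT021214.2 (chromosome 14, 62752002 to 62753880) lies in Ints6, like Ints12 a subunit of Integrator. It had 6.84, 22.5 and 13.2 CPM in control, 13.0, 13.6 and 13.7 CPM after injury and 1.46, 2.72 and 2.18 CPM in HBO. NONMMUT038722.2 (chromosome 2, 96570348 to 96571040) lies in Lrrc4c, an adhesion molecule of excitatory synapses, and had 7.59, 12.5 and 4.53 CPM in control, 4.76, 5.11 and 6.87 CPM after injury and 2.93, 2.72 and 1.74 CPM in HBO. The other 27 listed transcripts over Lrrc4c summed to 626 to 789 CPM in control, 340.5 to 534 CPM after injury and 364 to 609 CPM in HBO, where HBO and injury overlapped.

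The remaining 7 lowered members lay between coding genes. NONMMUT086510.1 (chromosome 12, 21558383 to 21564177, 140746 bases from Ywhaq) had 57.0, 70.5 and 53.0 CPM in control, 25.7, 42.9 and 30.0 CPM after injury and no count in HBO. By the same bound of 3 counts, the mean over the other 6 libraries was at least 118-fold above HBO. NONMMUT136504.1 (chromosome X, 151641131 to 151642990, 7272 bases from Phf8, a histone demethylase) had 10.3, 4.76 and 4.53 CPM in control, 10.8, 5.45 and 3.98 CPM after injury and no count in HBO. Its mean over the other 6 libraries was at least 16.8-fold above HBO. These 2 and Gm9917-201 were the members at 0 in every HBO library.

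NONMMUT004417.2 (chromosome 1, 192144041 to 192150963) lies in Gm10516, 5979 bases from the corepressor gene Rcor3. It had 33.0, 25.9 and 19.9 CPM in control, 18.1, 25.9 and 24.9 CPM after injury and 4.76, 0 and 6.53 CPM in HBO. NONMMUT111248.1 (chromosome 3, 64038089 to 64040703, 15510 bases from the nucleotide synthesis enzyme Gmps) had 11.4, 8.65 and 8.02 CPM in control, 6.99, 6.13 and 8.68 CPM after injury and 0.732, 2.33 and 2.18 CPM in HBO. HBO replicate 2 was the lowest for the first of these and the highest of its group for the second.

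NONMMUT122600.1 (chromosome 6, 86614203 to 86616764, 11400 bases from Asprv1) had 11.8, 15.1 and 5.23 CPM in control, 5.40, 5.11 and 4.70 CPM after injury and 1.10, 1.94 and 0 CPM in HBO. NONMMUT112686.1 (chromosome 3, 17391485 to 17394836) was even across the other 6 libraries, between 4.76 and 6.08 CPM, and had 2.56, 1.94 and 2.18 CPM in HBO. NONMMUT074336.2 (chromosome X, 151176328 to 151179716, 18362 bases from the kinase gene Wnk3) lay between 6.05 and 8.73 CPM in the other 6 and had 4.02, 1.94 and 3.49 CPM in HBO. The last had the narrowest gap of the lowered members.

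Values just inside and just outside the rule lay close together. NONMMUT003137.2 had a lowest HBO value 1.508 times the highest of the other 6, while NONMMUT021833.2 with 1.498 times (44.7 against 29.8 CPM) was left out. Among lowered transcripts, NONMMUT074336.2 entered at 1.504 times, and NONMMUT021826.2 with 1.426 times did not. At a threshold of 2, 5 raised and 8 lowered members remained, and at 20 counts in place of 10, 5 and 4 remained.

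The rule was also applied to each other set of 3 libraries against its remaining 6. The 3 control libraries gave 801 transcripts (314 raised, 487 lowered) and the 3 injury libraries 32 (6 raised, 26 lowered), against 27 for HBO. The 27 sets with 1 library of each group gave 8 to 26 transcripts with a median of 14. The 54 sets with 2 libraries of 1 group and 1 of another gave 10 to 118 with a median of 21.5, and 20 of these sets gave as many as HBO or more. The number found for HBO thus lay far below that for control, close to that for injury and within the range of the sets that mix 2 groups. These counts describe the rule and carry no p-value.

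**Figure D2:**
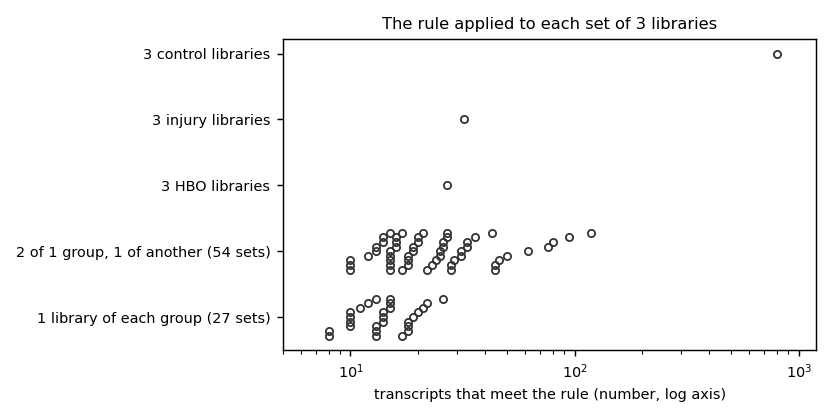
Number of transcripts that met the rule for each set of 3 libraries against the other 6, on a log axis; each circle is 1 set, and circles are spread vertically to be seen. HBO gave 27 and control 801, and the sets with 1 library of each group reached at most 26.

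The question of injury minus control was whether transcripts apart in HBO also differed after injury alone. The rule set no direction between injury and control, but it used the highest or lowest of those 6 libraries, so the members are not a free sample for this test and a large difference makes membership less likely. In addition, 9 of the 14 raised members had under 10 counts in each control and injury library and entered the fit through their HBO counts. NONMMUT003137.2, NONMMUT013907.2 and NONMMUT074113.2 reached the filter in too few control and injury libraries, and likewise entered through HBO. Every raised member at an unadjusted p under 0.05 in edgeR's fit is among the members that entered this way. The members' calls are therefore given as a description beside all transcripts. In the fit, 0 of 27 passed at a Benjamini-Hochberg adjusted p under 0.05 in edgeR's quasi-likelihood fit, where 5.68% of the 26850 transcripts tested did (the lowest adjusted p among members was 0.0844). That share rests on 1525 calls, which became 39 and 34 without control replicates 1 and 2, 395 without control replicate 3, 107, 149 and 619 when injury replicate 1, 2 or 3 was left out, and 935 when HBO replicate 1 was. At an unadjusted p under 0.05 there were 6 members, against 27.5% of all transcripts tested. By DESeq2, where 11.9% of transcripts passed, 0 of the 25 members given an adjusted p did. The median log2 change was 0.55 for the raised and 0.02 for the lowered members, beside 0.01 for all transcripts tested. A p above the threshold does not show that a member was unchanged.

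Of the 6 members, 4 were higher in injury, and all 4 were raised in HBO. The Col4a6 transcripts NONMMUT074113.2 and NONMMUT074115.2 had log2 changes of 1.99 (SE 0.63, edgeR adjusted p = 0.0844) and 1.60 (SE 0.51, adjusted p = 0.0882). Gm26690 had 1.35 (SE 0.51, adjusted p = 0.131) and the Nlrc5 transcript NONMMUT066773.2 had 0.98 (SE 0.43, adjusted p = 0.180). In NONMMUT074115.2, Gm26690 and NONMMUT066773.2 every injury library lay above every control library. These are 3 of 27 members, a share near the 12% of all transcripts tested with that pattern.

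The remaining 2 of the 6 were lower in injury. NONMMUT086510.1 had a log2 change of -0.68 (SE 0.23, edgeR adjusted p = 0.109) with means of 60.1 ± 9.17 CPM for control and 32.9 ± 8.95 CPM for injury (SD, n = 3), and 0 in HBO. The Fam129a transcript NONMMUT003137.2 had -3.01 (SE 1.13, adjusted p = 0.128), which became -0.15 (adjusted p = 0.910) without control replicate 2. Injury lay below control in every library for NONMMUT086510.1, NONMMUT003137.2 and NONMMUT013907.2, and for 23.5% of all transcripts tested.

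**Figure D3:**
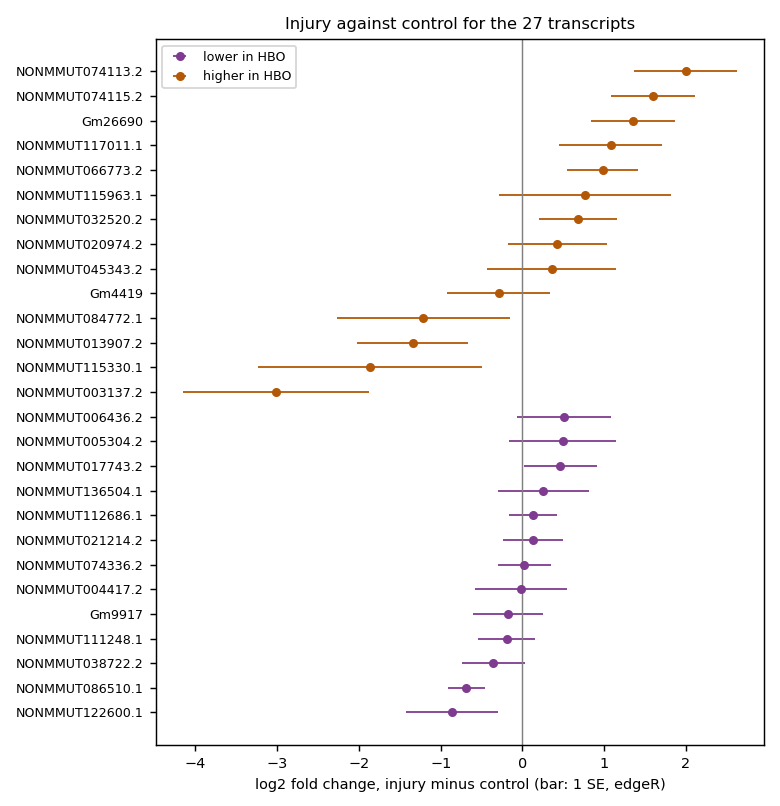
Log2 fold change of injury minus control for each member (edgeR, bars of 1 SE), members higher in HBO in orange and members lower in HBO in purple. Values run from -3.01 to 1.99, and none passed the adjusted test. The value of NONMMUT115330.1 rests on 1 count in the 6 control and injury libraries and has no meaning as a fold.

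In the contrasts that the rule used, the members' calls describe the choice and nothing is read from them. HBO minus injury called 1 member (0.0149% of all transcripts tested), HBO minus control 15 members (4.04%), and HBO minus the mean of injury and control 2 members, NONMMUT020974.2 and NONMMUT086510.1 (0.0261%), all by edgeR at an adjusted p under 0.05. HBO minus injury and HBO minus control share the HBO libraries.

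Of the 27 members, 14 overlapped other listed transcripts, 58 in all, and without strand in the files reads of overlapping transcripts cannot be told apart. By direction, 42.9% of raised and 61.5% of lowered members overlapped one, beside 34.8% and 33.9% of the transcripts past the same count floor. Summed with these, 2 of 14 loci still met the rule, and in 11 of 14 the HBO range overlapped that of the other 6 libraries. NONMMUT086510.1, whose 1 partner had no counts, and NONMMUT111248.1 were the 2 that met it. NONMMUT006436.2 remained apart without meeting it, with the sum at 6.61 to 47.0 CPM in HBO and 63.8 to 97.2 CPM elsewhere.

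NONMMUT115330.1 showed this most plainly. Its most abundant partner NONMMUT048277.2, which shares its start, had 21.6, 15.1 and 25.4 CPM in control, 18.7, 15.7 and 23.9 CPM after injury and 10.6, 14.0 and 16.1 CPM in HBO. The member held 20% to 22.9% of the counts of its locus in HBO and 0% to 1.75% in the other 6 libraries, while the summed locus overlapped at 17.6 to 27.4 and 18.4 to 31.4 CPM. For NONMMUT017743.2, the partner NONMMUT017742.2 had 105 to 165 CPM in all 9 libraries, and the member's share of the sum was 0.235% to 1.58% in HBO and 5.05% to 9.59% elsewhere.

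NONMMUT021214.2 held 8.89% to 14.3% of its locus in HBO and 48.2% to 100% elsewhere, beside the partner NONMMUT021213.2 with 15.0, 16.3 and 17.4 CPM in HBO. Gm4419 held 75.0% to 85.7% of its locus in HBO and 5.88% to 43.8% elsewhere, and its partners summed to 1.46 to 1.94 CPM in HBO and 2.86 to 6.62 CPM elsewhere. That was the 1 locus of 14 where the partners alone set HBO apart, in the direction opposite to the member. At these loci the summed counts of HBO overlapped the other groups while the member's share of them did not. The rule chose members by their own CPM, so the separation of the shares follows in part from that choice. The shares did overlap for NONMMUT084772.1, at 55.1% to 64.3% in HBO and 0% to 61.5% elsewhere. They also did for NONMMUT111248.1, at 25% to 100% in HBO and 70.6% to 85.7% elsewhere.

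NONMMUT020974.2 overlaps 3 listed transcripts, of which NONMMUT020966.2 had 84.3, 265 and 222 CPM in control, 50.5, 236 and 84.3 CPM after injury and 85.3, 58.3 and 63.6 CPM in HBO. NONMMUT084772.1 overlaps NONMMUT008425.2, which had 0.759, 2.16 and 1.05 CPM in control, 34.0, 14.0 and 20.6 CPM after injury and 5.49, 9.33 and 9.58 CPM in HBO. The partner was thus highest in injury, where the member was near 0. Gm9917-201 overlaps NONMMUT070900.2, with 7.32, 10.9 and 9.15 CPM in HBO and 0.759 to 13.3 CPM elsewhere. It also overlaps NONMMUT135347.1, which covers nearly the same span (107558811 to 107568416). That partner had 3.04, 0 and 0 CPM in control, 0.953, 0 and 0 CPM after injury and 1.10, 15.9 and 0.436 CPM in HBO. Summed with all its partners, the Gm9917-201 locus overlapped, at 11.7 to 29.1 CPM in HBO and 15.6 to 24.4 CPM elsewhere.

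**Figure D4:**
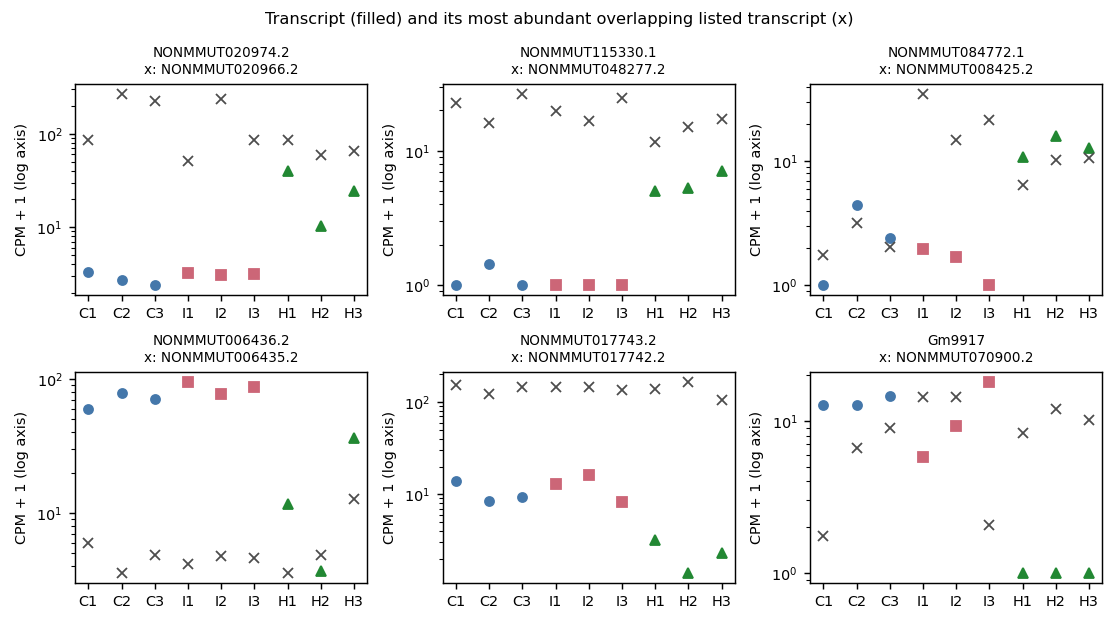
CPM plus 1 on a log axis in control (C), injury (I) and HBO (H) libraries for 6 members (filled symbols) and the most abundant listed transcript that overlaps each (crosses). NONMMUT115330.1 is at or near 0 outside HBO while its partner is between 10.6 and 25.4 CPM throughout, and Gm9917 (transcript 201) is at 0 in HBO while its partner is not.

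In the fit of HBO minus the mean of injury and control, 0 of 10 tested partners of raised members and 0 of 10 of lowered members passed (edgeR, adjusted p under 0.05). The share over all transcripts tested was 0.0261%. At an unadjusted p under 0.05 there were 3 partners of raised and 1 of lowered members, against 11.4% of all transcripts tested. Of the partners of raised members, 9 of 10 had a log2 change below 0 (median -0.33), and of those of lowered members 6 of 10 had one above 0 (median 0.24). Over all 26850 transcripts tested, 13233 were below 0 and 13617 above, with a median of 0.01. Several partners lie at the same locus, and partners may share reads with each other and with the member, so they are not independent. Where reads are shared, the choice of members by their HBO values may also bear on the direction of their partners. Listed transcripts within 100 kb that did not overlap gave 0 of 72 and 0 of 77 calls, with 7 and 10 at an unadjusted p under 0.05, shares near that of all transcripts, and medians of 0.09 and -0.18. With so small a share passing over all transcripts, 0 calls say little about any of these sets.

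The members were spread over the genome, the raised on 10 and the lowered on 10 chromosomes. Besides the Col4a6 pair, members lay within 1 Mb of each other at 2 places. The lowered NONMMUT074336.2 and NONMMUT136504.1 are 461415 bases apart on chromosome X, and the raised Gm4419 and the lowered NONMMUT086510.1 are 138580 bases apart on chromosome 12. Introns held 21.4% of raised and 15.4% of lowered members, beside 48.5% and 50.2% of the transcripts past the same count floor. Intergenic members made up 42.9% and 53.8%, beside 25.9% and 25.1%. Their median lengths were 1908 and 2562 bases, beside 2266 and 2299 bases. With 14 and 13 members, these shares are a description.

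No member lay over a gene of the antioxidant, hypoxia, heat shock, clock, immediate early or mitochondrial respiration lists. Noncoding transcripts over those genes gave 0 calls among the 15, 4, 1, 10, 3 and 7 tested in HBO minus the mean of injury and control, with list medians of log2 -0.09, -0.02, -0.11, 0.02, -0.45 and -0.20. Over all transcripts tested, 0.0261% passed in that contrast, so 0 calls say little about lists of this size. Summed over the hypoxia genes, HBO lay at 79.7 to 80.9 CPM within the other 6 libraries at 58.2 to 93.0 CPM. Over the antioxidant genes, HBO at 533 to 647 CPM lay below control at 725 to 908 CPM and overlapped injury at 479.6 to 589.8 CPM.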

How the data were processed

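Total RNA of 9 spinal cord libraries was aligned to GRCm38 with HISAT2, per the submitters' processing notes, which give no version. How reads were counted, and whether strand was used, is not stated there. The authors deposited a whole-number count and an FPKM value for each of 69547 long noncoding transcripts per library, per the file headers. The members and lists were chosen with earlier results of these data known.

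CPM used the column totals. Groups came from the labels. All 9 libraries entered one fit by group in edgeR 4.0.16 (R 4.3.3; TMM scaling, filterByExpr at 10 counts, quasi-likelihood test, Benjamini-Hochberg over 26850 transcripts), checked on simulated counts. DESeq2 1.42.0 was an alternative, beside other scalings, thresholds, no filter, a replicate block, summed features and each library left out. The design asked for overlap on the same strand; the files give none, so overlap ignored strand. Positions were set beside GENCODE M21. Per direction, 12 members with the widest gap (0.5 CPM added to both sides) and the 5 highest by mean CPM were to be named; Gm4419 and NONMMUT074336.2 fall outside and are given because every member is described. The surroundings of 1 member are not reported here. Replicates never agreed within sampling noise. Intervals of counting error were not computed beyond the floor of 3 counts.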

Additional observations from a re-analysis of the deposited data

How the results depend on the processing

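Of the scalings, TMM and DESeq2 size factors each gave 14 raised and 19 lowered transcripts and kept 12 and 12 of the members, losing NONMMUT074113.2, NONMMUT115963.1 and NONMMUT074336.2. Library totals from FPKM gave 11 and 16, losing Gm4419, NONMMUT003137.2 and NONMMUT013907.2. Column totals without the 10 most counted transcripts, added after the data were seen, gave 14 and 19. Raised and lowered transcripts numbered 5 and 8 at a threshold of 2, 53 and 31 at a looser threshold midway between 1 and 1.5, 28 and 30 with a minimum count of 5, 5 and 4 with 20, and 9 and 8 with overlapping spans summed. With 1 library left out, 18 to 121 were raised and 15 to 71 lowered, and all members remained, as the rule ensures. Without HBO replicate 3 these were 59 and 71.

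Injury minus control called 239 transcripts with no filter, 3685 by DESeq2, 2444 with overlapping spans summed and 34 to 1728 with 1 library left out. HBO minus injury called 2 with no filter, 57 by DESeq2, 2 with FPKM totals and 2 to 20 with 1 library left out. HBO minus control called 159, 3024 and 1823 with no filter, DESeq2 and overlapping spans, 296 on the 2 groups alone and 20 to 940 with 1 library left out. HBO minus the mean of injury and control called 319 by DESeq2, 2 with overlapping spans and 10 to 27 with 1 library left out. Calls of members in injury minus control stayed at 0 in the alternatives run, each library left out included, except 1 with overlapping spans summed, where the log2 change of Gm26690 also turned to -0.011. The causes were not tested.

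With the replicate number as a block, the counts called were 7 for injury minus control, 2 for HBO minus injury, 10 for HBO minus control and 6 for HBO minus the mean. Libraries of the same number did not deviate together (correlations -0.053 to 0.053, 0 of 9 above 0.1), so no pairing by number was seen in this measure. Depth limits the raised members outside HBO, where 9 of 14 had under 10 counts in each control and injury library. The rule asked lowered members for 10 or more counts in each of those libraries, so their low counts lie in HBO. The directions can therefore not be ranked by depth.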
